A study of Homo sapiens with 12 samples.

Results

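The genes that encode the proteins of the cytosolic ribosome are described here after depletion of the transcription factor MYB in K-562, a line of human erythroleukemia cells, and after rescue with wild-type or D152V MYB. They were chosen by name: protein-coding genes whose symbol is RPL or RPS with a number, optionally followed by A, X or L and by further digits (as in RPL7L1), together with RPLP0, RPLP1, RPLP2 and RPSA. Pseudogenes and the RPS6K kinases were left out. Of 84 matching rows, 82 reached at least 1 FPKM in at least 3 of 12 libraries, and all 82 did so in all 12. FPKM is the number of fragments per kilobase of transcript, scaled to a library's mapped fragments. RPL10L and RPL3L were below the minimum, with highest values of 0.199 and 0.329 FPKM. The 82 genes are 50 of the large subunit and 32 of the small subunit, among 60658 rows and 13393 tested genes.

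The series holds poly(A) RNA from 4 groups of 3 libraries, taken 24 hours after transfection. D152V_Rescue is a stable line expressing 3xTY-D152V, tagged MYB with an amino acid substitution, that received the MYB siRNA si2992. MYB-WT_Rescue is a stable line expressing 3xTY-hcM that received the same siRNA. MYB_KnockDown is a stable line with the 3xTY1 tag alone that received si2992, and siRNA_Control is that 3xTY1 line with a non-targeting siRNA. All lines were selected with G418 at 200 µg/ml, and the 3 libraries of a group are separate experiments per the series' design text. Each rescue form is thus represented by its own stable line; whether a line is a clone or a pool, and what promoter the MYB form has, the labels do not say.

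Each ribosomal subunit is built from ribosomal RNA and a fixed set of proteins, nearly all needed in equal numbers, and their genes are among the most highly transcribed of a growing cell. Their messenger RNAs begin with a run of pyrimidines, the 5′ terminal oligopyrimidine (TOP) motif, through which mTORC1 and the RNA-binding protein LARP1 control their translation and stability. Red cell precursors depend on this output, and loss of a copy of one of several of these genes causes Diamond-Blackfan anaemia.

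The pyrimidine run was visible at the start sites of most of these genes. Promoter sequences (RefSeq, GRCh38.p14, 250 bases before to 50 after the start) were matched for 66 of the 82 genes. Where a gene of the table had several annotated starts, the start with the longest run was kept. This held for 11 of the 66, RPS19 and RPL10 among them. An unbroken run of at least 8 C or T bases touching the stretch from 5 bases before to 5 after the start was present in 52 of 66 (78.8%; 78.0% of large and 80.0% of small subunit genes), against 14.1% of all 27305 promoters of the table and 15.5% of 9519 other tested genes. The median run was 11 bases, against 4 over all promoters. The windows below show 30 bases around the start, with the run in capitals. RPL39, RPL41 and RPS21 are shown because they rose after knockdown, RPS19 as the most often mutated Diamond-Blackfan gene, RPSA because its values overlapped with control, RPL10 because it differed between the rescue lines, and RPS27L and RPL7L1 as paralogs without a run.
RPL39: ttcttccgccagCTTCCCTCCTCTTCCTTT
RPL41: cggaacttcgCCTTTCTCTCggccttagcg
RPS21: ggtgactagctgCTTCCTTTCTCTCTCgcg
RPS19: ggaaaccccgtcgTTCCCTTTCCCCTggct
RPSA: tttcctgccgcctgTCTTTTCCgtgctacc
RPL10: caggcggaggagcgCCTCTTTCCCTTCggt
RPS27L: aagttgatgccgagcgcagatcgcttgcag
RPL7L1: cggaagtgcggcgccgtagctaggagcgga

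These windows are at chrX:119791616-119791645 on the minus strand (RPL39), chr12:56116618-56116647 (RPL41), chr20:62387088-62387117 (RPS21), chr19:41860240-41860269 (RPS19), chr3:39406705-39406734 (RPSA), chrX:154398362-154398391 (RPL10), chr15:63157463-63157492 on the minus strand (RPS27L) and chr6:42879601-42879630 (RPL7L1), the others on the plus strand. The run of RPL39 is 22 bases long and extends past its window. At least 1 of 4 hexamers, CAAC or TAAC followed by TG or GG, forms of the site that MYB binds, was found on either strand in 27.3% of the 66 promoters, against 26% of all promoters. CCGGAAG, a form of the ETS factor site, was found in 33.3%, against 10.6% of all promoters and 20.7% of other tested genes. CTTTCC, which can overlap the run, was found in 45.5%, against 26.4% of all promoters. Such matches describe letters in these windows only.

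The labels were checked first. MYB was at 86.6, 86.2 and 100.4 FPKM in D152V rescue libraries, 132, 125 and 115 in wild-type rescue libraries and 26.1, 32.9 and 31.5 in knockdown libraries, against 124, 132 and 104 in control libraries. Knockdown lowered it by 1.96 on the log2(FPKM + 1) scale (SE 0.13, limma adjusted p = 3.03e-05). Its single value in each library covers the introduced and the endogenous transcript alike. All 12 erythroid markers on a list for K-562 reached 1 FPKM in at least 1 library (SLC4A1, the weakest, averaged 0.356 in D152V rescue, 2.04 in wild-type rescue and 0.658 in knockdown libraries, against 0.462 in control libraries), while 2 of 5 lymphoid, 1 of 6 myeloid, 3 of 7 stromal or epithelial and no hepatocyte markers did so (MS4A1 at 0 in every library). The lymphoid markers summed to 79.6 to 113 FPKM in D152V rescue, 34.7 to 60.9 in wild-type rescue and 18.1 to 77.0 in knockdown libraries, against 19.9 to 25.9 in control libraries, and their part in the results below was not tested. MYB_KnockDown replicate 1 stood apart: its FPKM values summed to 1215578, against 672616 to 798362 in the other 11 libraries, and over tested genes it correlated with its own group at r of 0.930 and 0.929, against 0.983 to 0.991 within all other pairs of a group. Read counts and depth are unknown. The main counts below are also given without that library, which was singled out by its values; tests then use a fit of the other 11.

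Ribosomal protein genes took up a larger part of the knockdown libraries. In MYB_KnockDown replicates 1, 2 and 3 their summed FPKM made up 23.2%, 16.9% and 16.1% of the total, against 12.1%, 12.5% and 14.3% in siRNA_Control. The wild-type rescue libraries held 10.2%, 11.4% and 10.8%, and the D152V rescue libraries 11.5%, 12.5% and 11%. All 3 knockdown libraries were thus above all 9 others, the first by far. The large subunit held 9.23% to 13.1% in knockdown libraries against 5.83% to 8.16% in the 9 others, and the small subunit 6.85% to 10.0% against 4.42% to 6.11%. The ratio between the subunits stayed between 1.26 and 1.37 in all 12 libraries. Rows annotated as ribosomal protein pseudogenes, which can share reads with these genes, held 0.0635% to 0.130% in knockdown libraries against 0.0394% to 0.0534% in the others. In bulk RNA, a change in the share of cells that express a gene and a change in RNA per cell cannot be told apart.

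**Figure D1:**
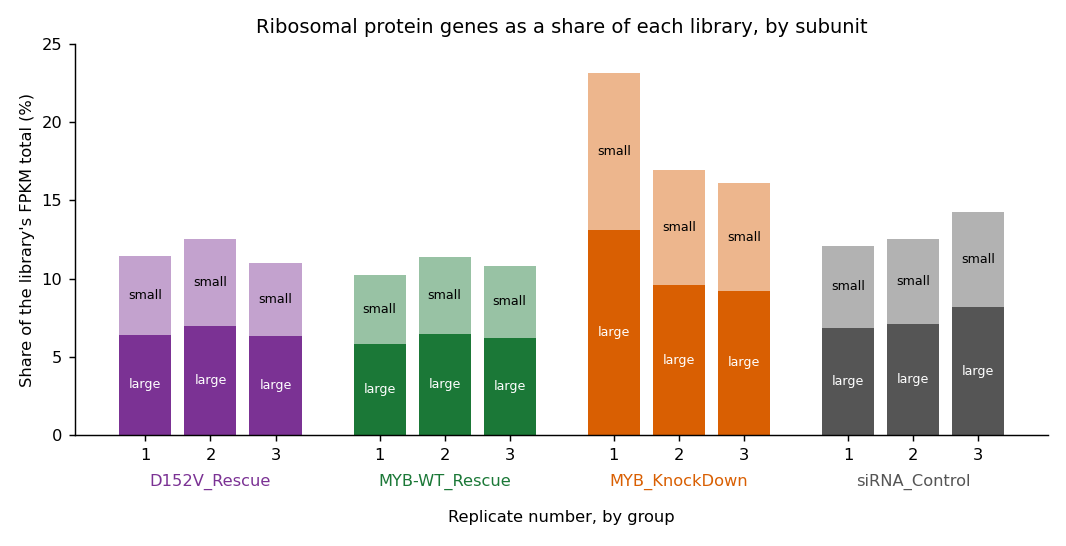
Share of each library's FPKM total held by 50 large subunit genes (solid) and 32 small subunit genes (pale), one bar per library, replicates 1 to 3 of each group. The 3 MYB_KnockDown bars reach 23.2%, 16.9% and 16.1%, above all 9 other bars, which lie between 10.2% and 14.3%.

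Levels spanned a wide range. Over all 12 libraries RPS23 and RPS24, proteins of the small subunit, were among the highest, with mean FPKM of 3859.7 and 3756. The median gene was at 1163. At the other end were 5 paralogs: RPL39L (43.6), RPL26L1 (61.4), RPL22L1 (62.3), RPS27L (64.8) and RPL7L1 (131). The other 77 genes were at 356 or more.

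Knockdown was compared with control siRNA in the 3xTY1 line. The ribosomal protein genes were higher as a set and nearly without exception: 80 of 82 had a positive log2 change, with a median of 0.81 (0.70 large, 0.91 small), against -0.03 over all tested genes. In limma's test, with Benjamini-Hochberg adjustment over all 13393 genes, 27 of the 82 rose (15 large, 12 small), against 3.94% of all tested genes, and none fell, against 7.38% (1, RPL7L1, was lower at an unadjusted p under 0.05). In 64 genes all 3 knockdown libraries were above all 3 control libraries, against 15.2% of tested genes, and in 1, RPL7L1, below, against 21.3%. Without MYB_KnockDown replicate 1 the median was 0.40 (0.38 large, 0.45 small), 71 of 82 changes were positive, and 49 genes rose (28 large, 21 small), against 7.26% of tested genes. None fell, against 12.9% (2 at an unadjusted p under 0.05). Both remaining knockdown libraries were above all control libraries in 65 genes, against 21.5% of tested genes, and below in 6, against 30.9%.

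The number of calls moved with the libraries in the fit. Leaving out siRNA_Control replicate 1, 2 or 3 left 1, 2 and 6 genes called, MYB_KnockDown replicate 2 or 3 left 42 and 48, a wild-type rescue library 14 to 17, and a D152V rescue library 12 to 15. In a fit of the 6 compared libraries alone no gene passed, and 32 were higher at an unadjusted limma p under 0.05.

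The 3 knockdown libraries shared the direction but not the size. Relative to the control mean, the median difference over the 82 genes was 1.66, 0.44 and 0.37 in replicates 1, 2 and 3 on the log2(FPKM + 1) scale. It was 1.54, 0.39 and 0.37 for the large subunit and 1.91, 0.56 and 0.35 for the small subunit. In turn 79, 68 and 66 of the 82 genes were above the highest control library, against 42.7%, 29.8% and 32.6% of tested genes. Replicate 1 was above the mean of the other knockdown libraries in 77 genes and more than 1 above control in 64, among them 18 that lay within 0.2 of control in the mean of replicates 2 and 3.

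RPL39 was high in all 3 knockdown libraries. It encodes a very small large-subunit protein that lines the exit tunnel, and lies on GRCh38 chromosome X from 119786504 to 119791630. It was at 2824, 2886 and 2260.1 FPKM in knockdown libraries, against 1122, 1222 and 1252 in control libraries. The lowest knockdown value was well above the highest control value, a 2.2-fold increase on the fitted scale (log2 change 1.1, SE 0.16, limma adjusted p = 0.00442), and the call held with any of the 12 libraries left out. RPL41, the smallest ribosomal protein, was at 5684, 3313 and 3414 FPKM against 1338, 1550.3 and 1893 (log2 change 1.34, SE 0.24, limma adjusted p = 0.0104). RPS27, a zinc-finger protein of the small subunit, was at 3826, 4508 and 3599 FPKM against 1829.9, 2013 and 2148 (log2 change 0.99, SE 0.16, limma adjusted p = 0.00716). In both genes the groups did not overlap. For these genes the change without replicate 1 was 1.09 for RPL39, 1.09 for RPL41 and 1.01 for RPS27.

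Others were above control in every knockdown library and highest by far in the first. RPS19, whose protein matures the small subunit's RNA, was at 3409, 889 and 782 FPKM in knockdown libraries, against 446, 461 and 486 in control libraries. Its log2 change of 1.52 (SE 0.42, limma adjusted p = 0.0417) was 0.84 without replicate 1. RPS21, another small subunit protein, was at 1691, 923 and 699.9 FPKM against 347, 376 and 435 (log2 change 1.42, SE 0.26, limma adjusted p = 0.0114; 1.06 without replicate 1). RPL13 and RPL34, of the large subunit, changed by 1.36 and 1.32, and by 0.74 and 0.80 without replicate 1. In all 4 genes the lowest knockdown library was above the highest control library.

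RPS28 carried the most extreme value of replicate 1 and was singled out for it after its values were seen. It was at 3745, 274 and 261 FPKM in knockdown libraries, against 218, 249 and 233 in control libraries. That is 4.0 above control in replicate 1, and 0.23 and 0.16 in the others. RPS26, an exit-channel protein of the small subunit, had 2574, 442 and 440.4 FPKM against 417, 460.0 and 395. Neither gene passed the test (limma adjusted p = 0.206 and 0.244). RPL11, RPS4X and RPL23A were likewise high in replicate 1 and near or under control in the others.

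**Figure D2:**
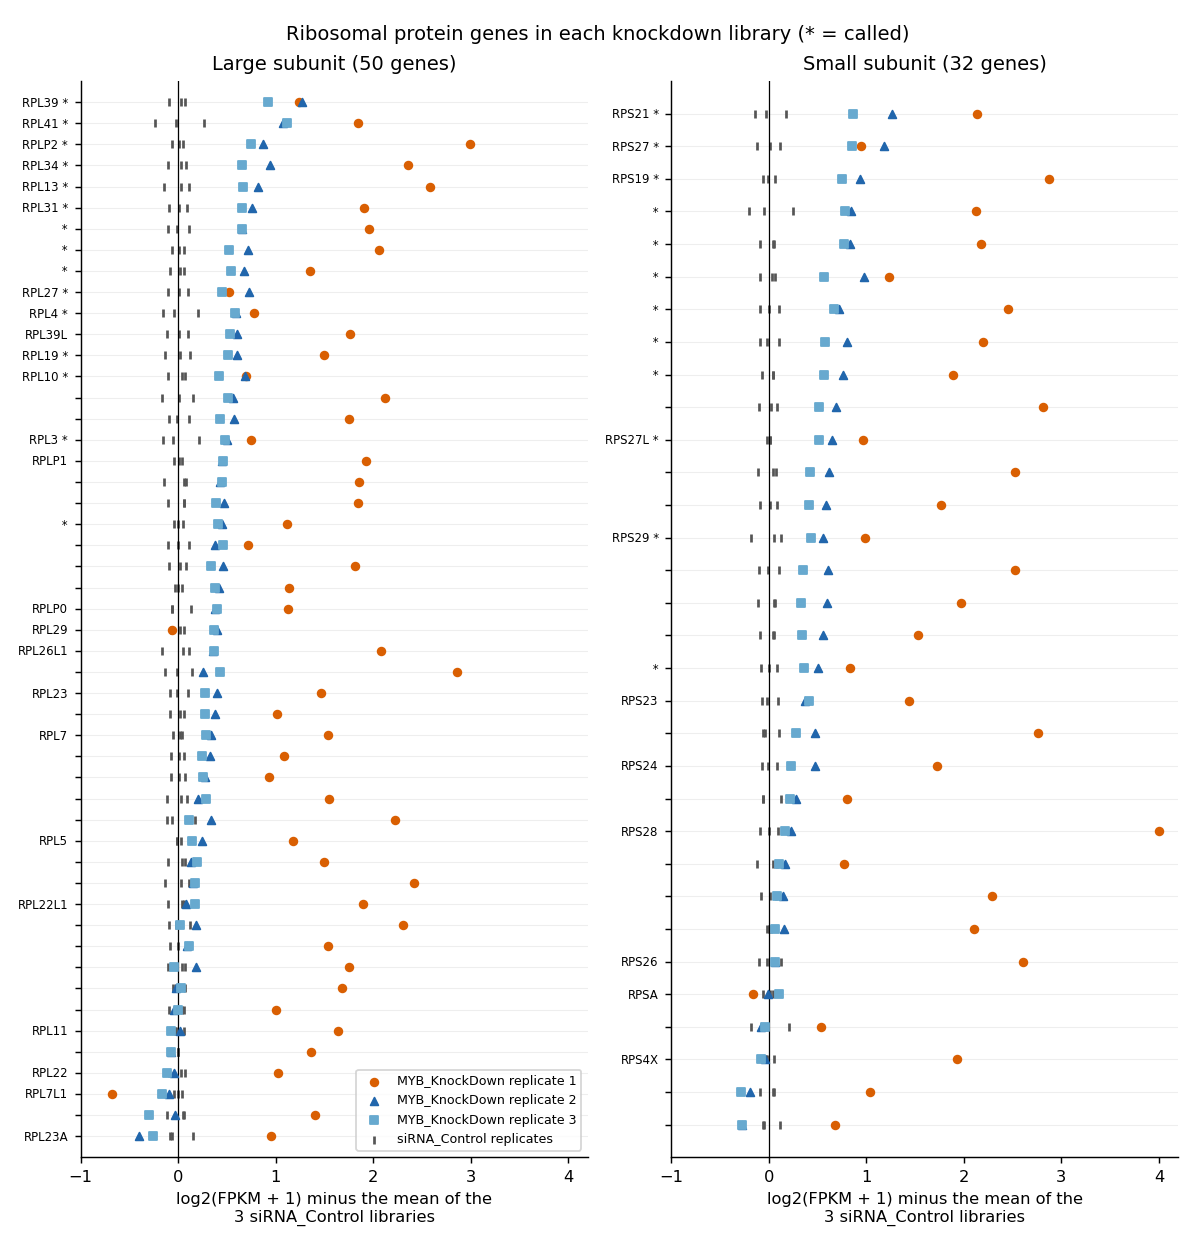
Each of the 82 genes in the 3 knockdown libraries (coloured points) and the 3 control libraries (grey ticks), as log2(FPKM + 1) minus the control mean, ordered by the mean of knockdown replicates 2 and 3. Rows of genes described in the text carry their names, and asterisks at the left edge mark the 27 genes called with all 12 libraries. Replicate 1 lies far to the right of replicates 2 and 3 in most rows, and 66 to 68 genes of those replicates still lie above every control library.

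A few genes were not higher. RPSA, the laminin receptor-like protein of the small subunit, was at 3247, 3607 and 3905 FPKM in knockdown libraries, against 3492, 3740.3 and 3667 in control libraries, overlapping throughout (log2 change -0.02, limma adjusted p = 0.936). RPL7L1, a paralog of RPL7 that acts in ribosome assembly, was at 88.9, 134 and 127 FPKM against 139, 147 and 143. It lay below control in every knockdown library without passing the test (log2 change -0.31, limma adjusted p = 0.154). The paralog RPS27L rose (115, 92.1 and 83.5 FPKM against 58.8, 57.3 and 58.8, log2 change 0.71, limma adjusted p = 0.0148), as did its partner RPS27. RPL39L, RPL26L1 and RPL22L1 were higher in each knockdown library than in any control library and did not pass (limma adjusted p = 0.0582, 0.103 and 0.198).

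The genes were also grouped by role. Of the P stalk, which recruits elongation factors, RPLP2 rose (2559, 586 and 537 FPKM against 307, 332 and 321; log2 change 1.54, limma adjusted p = 0.0496), while RPLP0 and RPLP1 changed by 0.63 and 0.95 and did not pass (limma adjusted p = 0.0697 and 0.115). Without replicate 1, 2 of these 3 genes rose. RPL5 and RPL11, which bind 5S ribosomal RNA and restrain MDM2, changed by 0.52 each with replicate 1 and by 0.19 and -0.03 without it, and did not pass in either case (limma adjusted p = 0.144 and 0.329 with it). Of 19 genes mutated in Diamond-Blackfan anaemia 7 rose, among them RPS19, RPL31, RPS27 and RPS29. That is 36.8%, against 32.9% of all 82 genes and 3.94% of tested genes, and all 19 changes were positive. Without replicate 1, 11 of them rose, or 57.9%, against 59.8% of all 82 and 7.26% of tested genes, and 18 changes were positive.

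**Figure D3:**
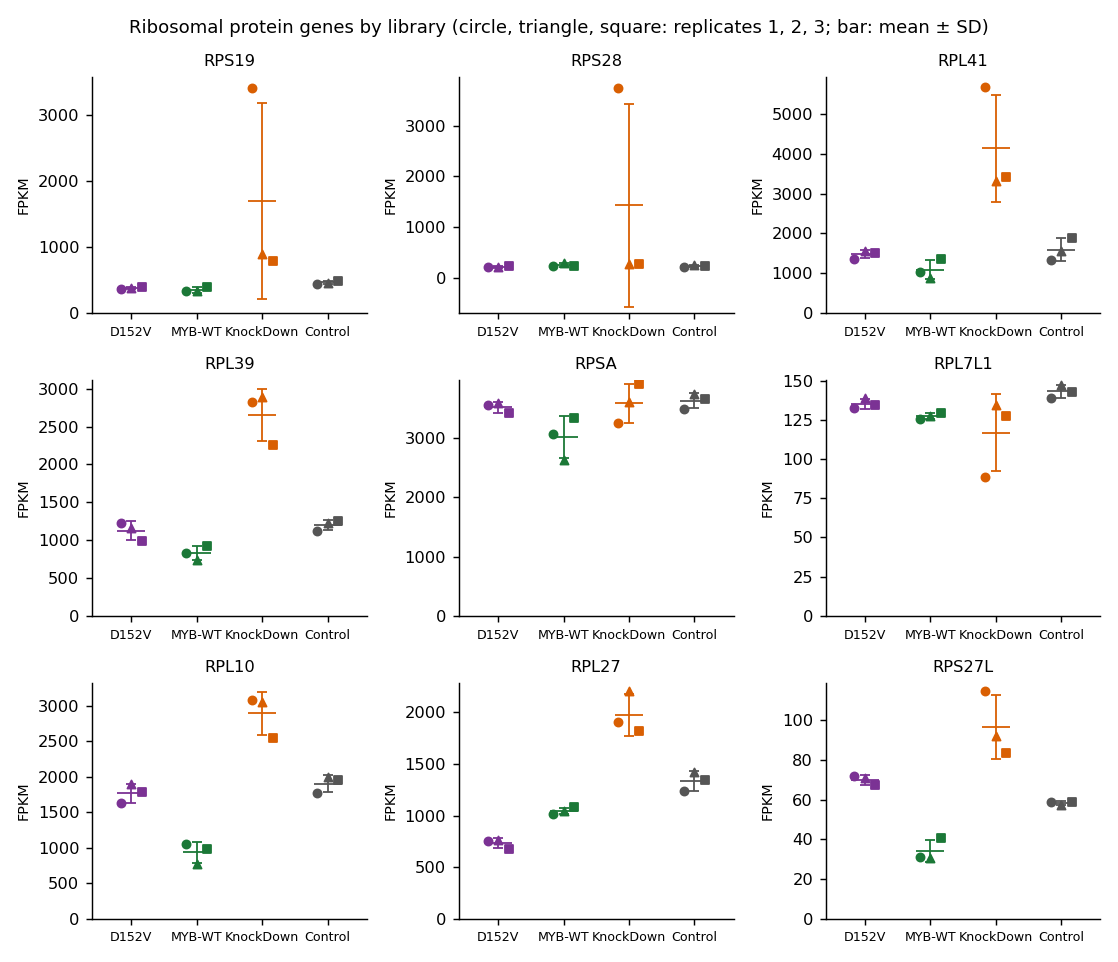
FPKM of 9 genes by library, with circles, triangles and squares for replicates 1, 2 and 3 and bars for mean ± SD (n = 3). RPS19 and RPS28 have a single very high value in knockdown replicate 1, RPL39 is high in all 3 knockdown libraries, RPSA overlaps between the knockdown and control libraries, and RPL10, RPL27 and RPS27L differ between the D152V and wild-type rescue lines.

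Coding length moved with these values. Over 11027 tested genes the difference from control correlated with coding length in knockdown replicates 1, 2 and 3 at a Spearman rho of -0.45, -0.28 and -0.27. Over the 82 genes it was -0.23, -0.28 and -0.29. With their mean level over the 12 libraries the difference correlated at -0.31, -0.36 and -0.40, and the part of level was not tested. These are descriptions across genes that share a library. Within a class of length the ribosomal protein genes were still higher: from 300 to under 600 coding bases, 48 of them had medians of 1.85, 0.44 and 0.36 in replicates 1, 2 and 3, and 1231 other genes 0.77, 0.12 and 0.16. With each library's trend with coding length removed, a step chosen after seeing the data, the medians over all 82 genes were 0.90, 0.30 and 0.19, the change between the groups was 0.44, and 19 genes were called higher, against 3.75% of tested genes. With that trend removed and replicate 1 left out the change was 0.25, with 35 genes higher and 3 lower, against 7.35% and 9.98% of tested genes.

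Other genes of translation, and other short and highly expressed genes, were counted in the same fit. Over all tested genes 3.94% rose and 7.38% fell, and without replicate 1 the shares were 7.26% and 12.9%. In the main fit a list near these shares, such as ribosome assembly with 1.69% and 6.78%, did not stand out from other genes. Of 33 translation factors and related genes with TOP messages 3 rose and 3 fell, with a median of 0.16; COX7C and NACA were among those that rose, by 0.95 and 0.94, and EIF3A fell by 0.81. Without replicate 1, 7 rose and 9 fell. Of 59 ribosome assembly and RNA polymerase I genes 1 rose and 4 fell, with a median of -0.14, including the nucleolar proteins NOLC1 (-0.76), WDR36 (-0.68) and DDX18 (-0.43), and EIF6 (0.73) in the other direction. Without replicate 1, 2 rose and 16 of the 59 fell, a larger share than the 12.9% of tested genes that fell. Of 14 genes of mTORC1 and LARP1, LARP1 (-0.94) and EIF4EBP2 (-0.56) fell. Without replicate 1, 6 of the 14 fell, against 12.9% of tested genes. Of 13 factors linked to these promoters MYC (-1.10), ZBTB7A (-1.0) and MAX (-0.48) fell. Without replicate 1, 4 of the 13 fell, against 12.9% of tested genes. Of 79 nuclear genes of the respiratory chain, 21 rose and 1 fell, with a median of 0.65, led by NDUFC2, NDUFB1, NDUFA3 and ATP5ME (1.68, 1.39, 1.24 and 1.20). Without replicate 1, 39 rose and 2 fell. Of 78 mitochondrial ribosomal protein genes 7 rose and 2 fell (median 0.45), and without replicate 1, 15 rose and 9 fell.

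**Figure D4:**
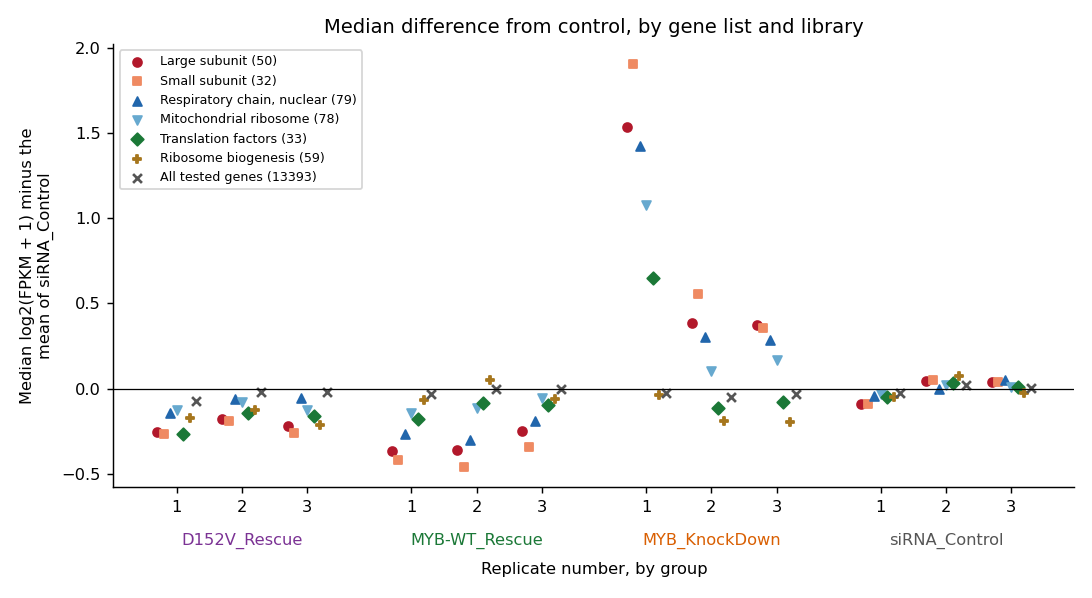
Median difference from the control mean on the log2(FPKM + 1) scale, by gene list and library, with the number of tested genes in brackets. Large and small subunit genes are at 1.54 and 1.91 in knockdown replicate 1, at 0.35 to 0.56 in replicates 2 and 3, and below 0 in all 6 rescue libraries, while the median of all tested genes stays near 0.

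Each rescue line was next set against the knockdown. The knockdown is in the 3xTY1 line, so the supply of MYB and other differences between the stable lines cannot be told apart. These comparisons share the knockdown libraries with the one above, so their direction is not separate evidence. In MYB-WT_Rescue 58 of 82 genes were lower than in the knockdown (35 large, 23 small), against 16.9% of tested genes, with a median of -1.17. In 67 all rescue libraries were below all knockdown libraries, against 21.9%. In D152V_Rescue 55 were lower (34 large, 21 small), against 12%, with a median of -1.02, and in 73 the groups did not overlap, against 20.7%. No gene was higher in either, also at an unadjusted limma p under 0.05, against 20.6% and 13% of tested genes. Without MYB_KnockDown replicate 1 the medians were -0.82 and -0.60, with 65 and 64 genes lower, against 19.9% and 15.9%, and 68 and 74 below both knockdown libraries without overlap, against 28.5% and 27.6%. RPL23A was the exception: its value was then higher by 0.30 with wild-type MYB (limma adjusted p = 0.0430), against 25.3% of tested genes. Leaving out D152V_Rescue replicate 1, 2 or 3 left 31, 36 and 35 genes lower in that line. The fall was not particular to ribosomal protein genes. With all libraries, 56 of 79 nuclear genes of the respiratory chain (70.9%) were lower with wild-type MYB and 2 higher. With D152V MYB 38 (48.1%) were lower and 0 higher. The ribosomal protein genes were lower in 70.7% and 67.1%.

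RPL39 was at 1227, 1164 and 985 FPKM in D152V rescue libraries and 834, 742 and 919.9 in wild-type rescue libraries, against 2824, 2886 and 2260.1 in knockdown libraries. RPS21 was at 317, 308 and 247 FPKM and 252, 214 and 239, against 1691, 923 and 699.9. Both rescue lines were below every knockdown library for both genes (RPS21, log2 change -1.83 for D152V and -2.13 for wild-type MYB, limma adjusted p = 0.00119 and 0.000254).

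The rescue lines were lower than the knockdown and also somewhat lower than control. In MYB-WT_Rescue the median difference from control was -0.36, against -0.02 over all tested genes. In 62 genes all 3 libraries were below all 3 control libraries, against 23.3% of tested genes, and in 1 above, against 21.4%. By library the median was -0.39, -0.38 and -0.29 in wild-type rescue replicates 1, 2 and 3, and -0.26, -0.19 and -0.24 in D152V rescue replicates, where the median change was -0.22. In D152V_Rescue 49 genes were below control without overlap, against 26.2%, and 2 above, against 18.2%. Few passed the test: 6 of 82 fell in the wild-type rescue, against 4.58% of tested genes (17 at an unadjusted p under 0.05), and 1 in the D152V rescue, against 4.94% (5 at an unadjusted p under 0.05). None rose in either by limma, also at an unadjusted p under 0.05, against 5.04% and 4.61% of tested genes. Without MYB_KnockDown replicate 1, which is in neither comparison but enters the shared estimate of spread, 56 fell in the wild-type rescue, against 15.9%, while in the D152V rescue 32 fell and 1 rose, against 16.4% and 11.2%. In the wild-type comparison the count was 3 without any 1 control or wild-type rescue library and 4, 4 and 5 without D152V replicates 1, 2 and 3. In the D152V comparison it was 2 without MYB_KnockDown replicate 2 or 3.

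Among the genes that fell in the wild-type rescue were RPL4 (-1.05), RPL10 (-1.03), RPS27L (-0.76), RPL3 (-0.54) and RPL29 (-0.54). RPL4 is a core protein of the exit tunnel, and RPL10 completes the large subunit's tRNA-binding region. RPL4 was at 1269, 1217 and 1595 FPKM in wild-type rescue libraries, against 2512, 2714 and 3226 in control libraries (limma adjusted p = 0.00461). RPL10 was at 1058, 774 and 982 FPKM against 1775, 1992 and 1950.0 (limma adjusted p = 0.00310). The groups did not overlap in either. The gene that fell in the D152V rescue was RPL27, of the large subunit, at 755, 762 and 676 FPKM against 1234, 1423 and 1343 (log2 change -0.87, SE 0.14, limma adjusted p = 0.00241).

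D152V_Rescue was then compared with MYB-WT_Rescue, the lines that carry each form. MYB itself was lower in the D152V line (log2 change -0.44, SE 0.13, limma adjusted p = 0.0494; limma adjusted p = 0.00542 without MYB_KnockDown replicate 1), and its part in the differences was not tested. The median difference was 0.11 (0.09 large, 0.14 small), against -0.03 over all tested genes, and 3 rose and 1 fell, against 5.96% and 6.19% of tested genes. In 30 genes all D152V libraries were above all wild-type rescue libraries, against 18.3%, and in 9 below, against 24.3%. RPS27L was at 71.9, 71.1 and 67.2 FPKM in D152V rescue libraries, against 31.0, 30.8 and 40.7 in wild-type rescue libraries (log2 change 1.03, SE 0.14, limma adjusted p = 0.000576). RPL10 had 1626, 1894 and 1794 FPKM against 1058, 774 and 982 (log2 change 0.93, limma adjusted p = 0.00393), and RPL4 had 2178, 2417 and 2804 against 1269, 1217 and 1595 (0.86, limma adjusted p = 0.0100). RPL27 had 755, 762 and 676 FPKM against 1016, 1045 and 1079 (-0.52, limma adjusted p = 0.0310). Without MYB_KnockDown replicate 1, 16 rose and 6 fell, against 13.6% and 17.8%. The 4 calls fell to 3 without any 1 control library, wild-type replicate 1 or 3, or D152V replicate 1 or 2, and to 2 without wild-type replicate 2 or D152V replicate 3.

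The 5 genes lowest in each rescue line relative to control lie in chromosomal regions where the other genes moved the same way. The median change of all other tested genes within 5 Mb was computed for each of the 82 genes, a measure chosen after seeing the data, with RefSeq positions on GRCh38.p14. In the wild-type rescue against control it was under -0.3 for 5 of the 82, among them RPS27L, RPL4 and RPLP1 on chromosome 15 and RPL10 near the end of the long arm of X. The 5 changed by -1.05 to -0.76 and were the 5 lowest of all 82; the other 77 ranged from -0.71 to 0.13. For RPL3 and RPL29, which also fell, the neighbour medians were -0.10 and -0.088. Around RPL10, 68 of 71 other tested genes were below 0, with a median of -0.66, and around RPL4 51 of 55, with a median of -0.43. Over all 390 other tested genes of chromosome 15 the median was -0.46, while on every other chromosome it lay between -0.13 and 0.12. By library the chromosome 15 median was -0.17, -0.10 and -0.11 in D152V rescue replicates, -0.51, -0.44 and -0.46 in wild-type rescue replicates and no lower than -0.06 in knockdown replicates.

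In the D152V rescue against control a different set of 5 lay in such regions: RPL19, RPL23 and RPL27 on chromosome 17, and RPL22 and RPL11 on the short arm of chromosome 1. They changed by -0.87 to -0.58, again the 5 lowest of all 82, and the other 77 ranged from -0.45 to 0.34. Around RPL27, 117 of 154 other tested genes were below 0 (median -0.33), and around RPL23 104 of 121 (median -0.54). RPL11 was at 1757, 1874 and 1777 FPKM in D152V rescue libraries, 2469, 2774 and 2475 in wild-type rescue libraries and 8367, 2722 and 2553 in knockdown libraries, against 2636, 2797 and 2649 in control libraries. Only the D152V line was below control without overlap.

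**Figure D5:**
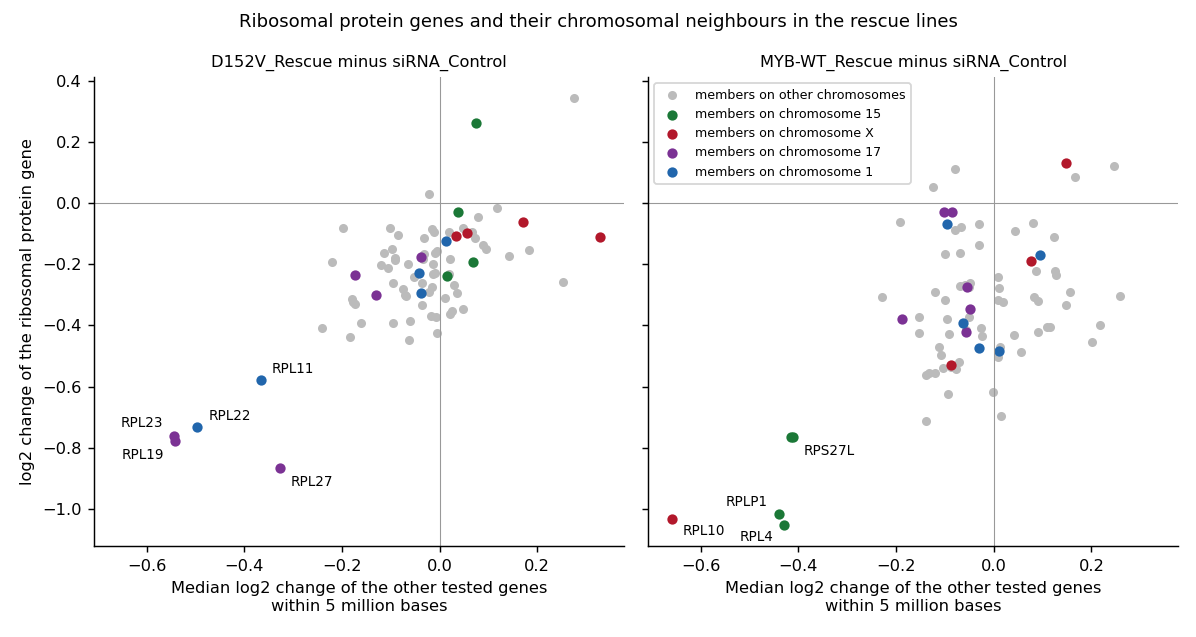
Log2 change of each of the 82 genes against the median log2 change of the other tested genes within 5 Mb, for D152V rescue minus control (left) and wild-type rescue minus control (right). In each panel the 5 genes with the lowest neighbour medians, under -0.3, are also the 5 lowest of the 82 genes, and those described in the text are labelled.

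Each gene's neighbourhood median was then subtracted in every library. Tested genes without a position or with too few neighbours stayed as they were, among them RPS6, with 8 neighbours. With this step 1 of the 4 differences between the rescue lines passed, RPS27L (log2 change 0.54, limma adjusted p = 0.0318), against 5.22% of tested genes higher and 4.59% lower. RPL10, RPL4 and RPL27 were then at 0.29, 0.37 and -0.19 (limma adjusted p = 0.316, 0.264 and 0.514). In both comparisons with control no gene passed, against 3.17% of tested genes lower in the wild-type rescue and 3.12% in the D152V rescue (16 and 1 lower at an unadjusted limma p under 0.05), while the median changes stayed at -0.35 and -0.20. Without MYB_KnockDown replicate 1 and with this step, 50 genes were lower in the wild-type rescue and 25 in the D152V rescue, against 12.8% and 11.6%. Between the rescue lines 13 were then higher in D152V, against 13.6%, and none lower, against 13.8%. In the knockdown against control 27 genes rose with this step, against 4.91% of tested genes, the same count of members as without it, and 54 without replicate 1, against 9.72%. Each rescue line is a separate stable line, so the MYB form and other differences between the lines cannot be told apart.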

How the data were processed

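The authors deposited 1 table of FPKM values for the 12 libraries. Per the submitters' processing notes, bcl2fastq 2.17.1.14, Trimmomatic 0.33, TopHat2 2.0.13, Cufflinks 2.2.1 and GRCh38 were used; not given in the sources used here are the annotation, the Cufflinks program and whether strand was used. FPKM depends on the length set for a gene and on the few most abundant transcripts. Ribosomal protein genes have many near-identical pseudogenes, so reads may be split between copies. Low values gave no whole-read steps (a median of 4.7% of ratios within 2%), so depth is unknown and no count model was used.

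The 13393 genes with at least 1 FPKM in at least 3 libraries were fitted as log2(FPKM + 1), which understates changes of low genes, with limma 3.58.1 in R 4.3.3 (a mean per group, variance trend, 8 residual degrees of freedom). The 6 contrasts were adjusted by Benjamini-Hochberg over all tested genes, and called at 0.05. Tables and figures were made with Python 3.11.15, pandas 2.3.3, numpy 2.4.6 and matplotlib 3.10.9. On simulated data for the knockdown comparison (13393 genes), 76% of genes changed by 1 and 97% of those changed by 2 on the log2 scale were recovered. The simulated spread was equal in all libraries and independent between genes. These shares therefore do not describe data with an outlying library such as MYB_KnockDown replicate 1.

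The members, gene lists, tests and the rule for named genes were chosen with earlier results of these data known. The rule took the called genes with the largest changes, the highest and lowest levels, paralogs and their partners, genes of fixed roles and the smallest knockdown changes, 35 genes after leaving out genes that are not reported here; not all of them are described. RPL19, RPL23, RPL29, RPL31, RPS28 and RPS29 fall outside the rule and were named after their values were seen. Symbols came from a table of Ensembl identifiers, coding lengths from the GENCODE annotation, positions and promoters from RefSeq (GRCh38.p14). Positions were found for 89.5% of tested genes.

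Same-numbered libraries of the rescue lines deviated together (r of 0.153 to 0.233, against -0.22 to 0.0621 for other pairs). Those of knockdown and control did so weakly (r of 0.0376 to 0.132, against -0.146 to 0.0311). The numbers may thus pair libraries in these comparisons, which the main fit leaves out. In the remaining pairs of groups the ranges overlapped. With the replicate number as a block, the calls between the rescue lines did not change. Alternatives were another pseudocount, no filter, a mean of at least 5 FPKM, quantile normalization, median-ratio scaling, the 6 compared libraries alone, library weights, the block, each library's trend with transcript length removed, and leaving out each library. Removal of the coding length trend and of the neighbourhood median was added after seeing the data.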

Additional observations from a re-analysis of the deposited data

How the results depend on the processing

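The direction of the median change over the 82 genes was the same in all 6 comparisons under every alternative, while the number of calls moved. For knockdown against control, 5 genes were called with no filter, 0 in the 6 libraries alone (32 at an unadjusted limma p under 0.05) and 52 with library weights; with the replicate block 22 were called. Against the knockdown, 24 (wild-type) and 4 (D152V) were called in 6 libraries, and 32 (D152V) under quantile normalization. Between the rescue lines 2 were called with no filter, 7 under quantile normalization, 18 in 6 libraries, 20 with weights, 7 with the transcript length trend removed and 1 with the neighbourhood median removed, also with the block; without MYB_KnockDown replicate 1 and with that step, 13. For the wild-type rescue against control 50 were called in 6 libraries, 53 with weights, 10 with the coding length trend removed, also with the block, and 0 with the neighbourhood median removed, also with the block (16 at an unadjusted p under 0.05), and 50 with that step without MYB_KnockDown replicate 1; the median was -0.18 under quantile normalization, and -0.28 and -0.27 with the transcript and coding length trends removed, also with the block. For the D152V rescue against control 4 were called under quantile normalization (median -0.074), 34 in 6 libraries, 26 with weights, 3 with the transcript length trend removed (2 with the block), 4 with the coding length trend removed, also with the block, 0 with the neighbourhood median removed, also with the block, and 25 with that step without MYB_KnockDown replicate 1. The causes of these shifts were not tested.

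Leaving out 1 library at a time gave 1 to 49 calls and medians of 0.40 to 1.04 for knockdown against control, and 0.25 with the coding length trend removed as well. It gave 51 to 68 calls and -1.37 to -0.82 for the wild-type rescue against knockdown, 31 to 68 and -1.32 to -0.60 for D152V against knockdown, and 2 to 22 and 0.08 to 0.13 between the rescue lines. Against control it gave 3 to 56 and -0.41 to -0.32 for the wild-type rescue, and 1 to 33 and -0.25 to -0.20 (-0.19 with the neighbourhood median removed) for D152V. Group mean shares were 11.2% to 12% in D152V rescue, 10.5% to 11.1% in wild-type rescue, 16.5% to 20.1% in knockdown and 12.3% to 13.4% in control. With mitochondrially encoded genes out of the total they were 13.9% in D152V rescue, 13.2% in wild-type rescue and 21.5% in knockdown, against 14.9% in control. Over tested coding genes they were 15.5%, 14.2% and 23.2% in D152V rescue, wild-type rescue and knockdown, against 16.9% in control.

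Among named genes 6 values that passed the test with all libraries or under the alternative turned round: RPL23A in wild-type rescue against knockdown (0.64 under quantile normalization, and -0.38 to 0.30 with 1 library left out), RPL5 in the same comparison (0.036 under quantile normalization), and in D152V against knockdown RPL10 (0.028 under quantile normalization) and RPS27L (0.094 with the coding length trend removed, with and without the block). A further 133 values that passed in neither fit changed sign, in 45 combinations of gene and comparison. Depth is unknown, so low paralogs cannot be given counting intervals.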
